A study of Mus musculus with 2 samples.

Results

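The CA1 pyramidal layer spots are the array positions of 2 coronal mouse brain sections that carried the strongest signal of Spink8, Fibcd1 and Pou3f1. In each section every spot with at least 500 UMIs (unique molecular identifiers, each standing for 1 captured transcript) and an array row of 35 or less received a score, the mean over the 3 genes of the natural log of 1 plus its UMIs per 10000 in the spot. The 80 highest-scoring spots per section were taken as members, which gave 80 of 3712 used spots in mouse 1, 80 of 3548 in mouse 2 and 160 of 7260 in all. The genes of the rule, and every gene measured in the same spots, were therefore open to the choice of members, so the levels of members beside other spots are given as a description with no test. A spot covers several cells and their processes. In sums over spots, fewer cells of a type and less RNA per cell cannot be told apart.

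CA1 pyramidal cells are the principal excitatory neurons of the last field of the hippocampal circuit. Their cell bodies are packed in a thin layer. They receive input from CA3 through the Schaffer collaterals and from the entorhinal cortex, and they send the hippocampal output on to the subiculum and neocortex. In the dorsal hippocampus the basal dendrites extend above the cell layer into the stratum oriens, which borders the myelinated alveus, and the apical dendrites extend below it. Their synapses are a standard model of calcium-dependent plasticity, in which CaMKII, calmodulin and AMPA receptor subunits take part.

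Both mice belonged to 1 group. They expressed hM3Dq, an engineered receptor that excites neurons when it is bound by its ligand, and were treated with that ligand, CNO. The labels give the genotype of mouse 1 as WT:C57BL/6J control and that of mouse 2 as WT:CRISPR-Cas9 edited isogenic control, and no section of a mouse without hM3Dq or CNO was analysed here. The injection was made 4.6 mm behind bregma and the 10 µm sections came from 1.9 mm behind it. The brains were frozen without perfusion, so blood stayed in the vessels, and their lateral parts were trimmed away. The labels do not tie the injected side to the left or right of the image. Which neurons carried hM3Dq is not stated for these sections, and the replicate is the mouse, with 1 section each.

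The tables held 30671753 UMIs in mouse 1 and 55315952 in mouse 2, with medians of 7556.5 and 14663 UMIs per spot. The members held 711778 UMIs in mouse 1 and 1554038 in mouse 2. Their median was 8888 UMIs per spot in mouse 1, against 7535 in the other spots, and 17878.5 in mouse 2, against 14601 in the other spots. Mitochondrial transcripts took 7.87% and 9.64% of the members' UMIs, against 13.5% and 15.5% in the other spots. The 2 tables shared 3369 spot barcodes, and all 3366 of these used in both sections lay at the same array position in each. Levels below are counts per 1000000 UMIs (CPM) of summed counts, with the value of mouse 1 before that of mouse 2.

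The members lay in 2 arcs, 1 on each side of the midline. In mouse 1, 67 of 80 members touched another member, and in mouse 2, 73 of 80 did. Only 5 and 3 members lay more than 2 spot steps from any other. A line of mirror symmetry was fitted to each section, and 44 members of mouse 1 lay left of it in the image and 36 right of it. In mouse 2, 33 lay left and 47 right. Members reached from 0.83 to 27.1 spot steps from that line in mouse 1, with a median of 13.2, and from 2.05 to 24.6 in mouse 2, with a median of 9.05.

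**Figure D1:**
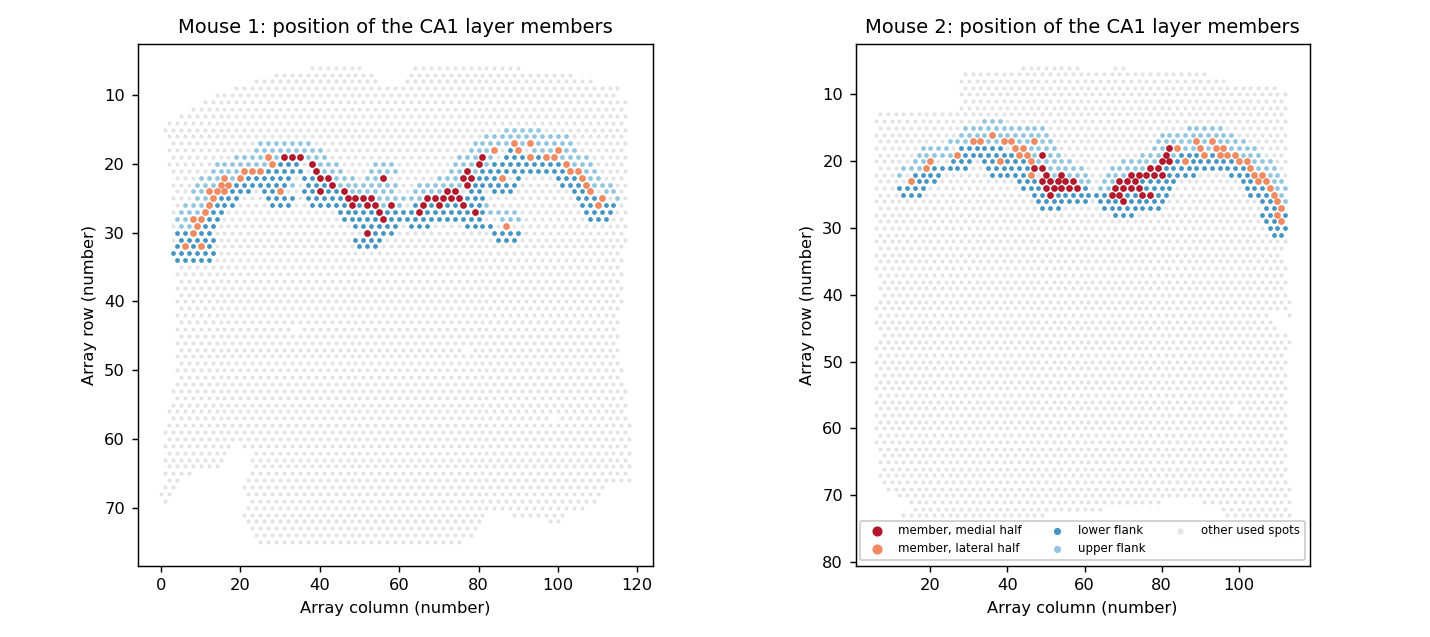
Used spots of each section by array column and array row (numbers on the array, rows counted downward), with medial members (dark red), lateral members (orange) and the lower (blue) and upper (light blue) flanks of neighbouring spots. The 80 members of each mouse form an arc on each side of the midline, with 5 members of mouse 1 and 3 of mouse 2 more than 2 steps from any other.

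The score at the edge of the set ran without a gap. In mouse 1 the last member scored 0.928 and the first spot left out 0.912. In mouse 2 these scores were 0.970 and 0.969. The highest scores were 1.76 and 1.87, the median of the spots left out was 0, and 25 and 26 spots lay within 0.05 of the edge. Spink8 was seen in 78 and 79 of the 80 members, Pou3f1 in 78 and 79, and Fibcd1, the scarcest of the 3, in 62 and 75. The median member held 1 and 3 UMIs of Fibcd1.

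The rule genes set the scale of the signal. Spink8, a Kazal-type serine protease inhibitor, had 593 and 497 CPM in members, against 15.1 and 18.1 CPM in other spots. Fibcd1, an acetyl-group-binding membrane receptor, had 149 and 162 CPM in members, against 8.71 and 12.2 CPM in other spots. Pou3f1, a POU-domain transcription factor, had 277 and 264 CPM in members, against 24.7 and 26.0 CPM in other spots. All 3 were far higher in members in both mice, which is what the rule selected. In spots chosen in the same way by the CA3 markers Grik4, Iyd and Bok (60 per section), Spink8 had 43.7 and 57.2 CPM. In the 60 spots per section chosen by the dentate granule markers C1ql2, Prox1 and Dsp it had 16.2 and 26.6 CPM. The CA3-marker and dentate-marker sets shared 2 spots in each mouse.

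The label was set against 10 CA1 pyramidal genes of the tables, of which 9 were eligible, meaning that the mean of their member and other-spot CPM was at least 10 in both mice. All 9 were at least 2-fold higher in members in both mice, beside 4.68% of the 8852 eligible genes. The 3 rule genes are among these 9 and were high by the choice of members, so they bear nothing on the label, and the other 6 came from the same spots that the rule chose. Those that the rule did not name included Lefty1, Ndst4, Ccn3, Wfs1 and Mpped1, and the one not eligible was Grp, at 2.81 and 9.01 CPM in members. The choice of members depended on the marker genes. As an alternative, 80 spots per section were chosen by Wfs1, Mpped1 and another CA1 gene. Of these, 21 were members in mouse 1 and 38 in mouse 2. Wfs1, an endoplasmic reticulum protein used as a CA1 marker, had 204 and 317 CPM in members, against 32.6 and 39.8 CPM in other spots. In the CA3-marker spots Wfs1 had 23.9 and 30.3 CPM, and in the dentate-marker spots 32.4 and 36.4 CPM. Of the rule genes only Fibcd1 has a promoter in the RefSeq table used here. Its promoter and that of Wfs1 are shown because Neurod6, a basic helix-loop-helix factor of a family that binds E-boxes (CANNTG, which reads the same on both strands), was among the highest genes in members. The promoters run from 250 bases before to 50 after the start that the table gives on GRCm38.p6, Fibcd1 at chr2:31845956-31846255 on the minus strand and Wfs1 at chr5:36988933-36989232 on the minus strand. For Fibcd1 that start lies inside the gene, which extends on its upstream side to 31846964 on chromosome 2, so the stretch shown is not at the outermost start. Capitals mark the E-box.
Fibcd1: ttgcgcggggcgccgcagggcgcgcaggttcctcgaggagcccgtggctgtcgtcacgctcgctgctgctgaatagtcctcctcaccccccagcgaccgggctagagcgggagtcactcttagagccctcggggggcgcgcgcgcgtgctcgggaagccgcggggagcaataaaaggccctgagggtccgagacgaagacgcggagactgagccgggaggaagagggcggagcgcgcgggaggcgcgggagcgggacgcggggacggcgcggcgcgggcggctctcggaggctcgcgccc
Wfs1: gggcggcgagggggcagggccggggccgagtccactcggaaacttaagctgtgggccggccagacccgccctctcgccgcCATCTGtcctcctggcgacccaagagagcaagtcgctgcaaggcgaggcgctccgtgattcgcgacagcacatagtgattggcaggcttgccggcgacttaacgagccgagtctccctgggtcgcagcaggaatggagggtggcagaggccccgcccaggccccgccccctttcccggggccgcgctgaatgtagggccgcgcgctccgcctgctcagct
The Wfs1 promoter held 1 such match, 170 bases before the start, and the Fibcd1 promoter held 0. A match occurs in 72.31% of the 32851 promoters of that length in the table.

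Among all 8852 eligible genes, 414 were at least 2-fold higher in members in both mice and 473 (5.34%) at least 2-fold lower. The median log2 ratio over all of them was 0.06. A log2 ratio of at least 2 in both mice was reached by 88 genes. Besides the rule genes, the highest were led by Gm34466, Lefty1, Wnt2, 4921539H07Rik, Iqgap2 and Gpr161. Lefty1, a secreted TGF-beta family antagonist, had 88.5 and 114 CPM in members, against 6.14 and 6.94 CPM in other spots. Wnt2, a secreted Wnt ligand, had 28.1 and 27.7 CPM in members, against 1.64 and 1.97 CPM in other spots. Iqgap2, an actin-binding scaffold, had 121 and 178 CPM in members, against 10.1 and 13.97 CPM in other spots. These genes were scarce in the other spots. They were named for their high ratios in both mice, so the lack of overlap between members and other spots follows from that choice. Gpr161, an orphan receptor of the primary cilium, had 74.5 and 101 CPM in members, against 6.41 and 6.90 CPM in other spots, and 0 and 5.198 CPM in the CA3-marker spots.

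**Figure D2:**
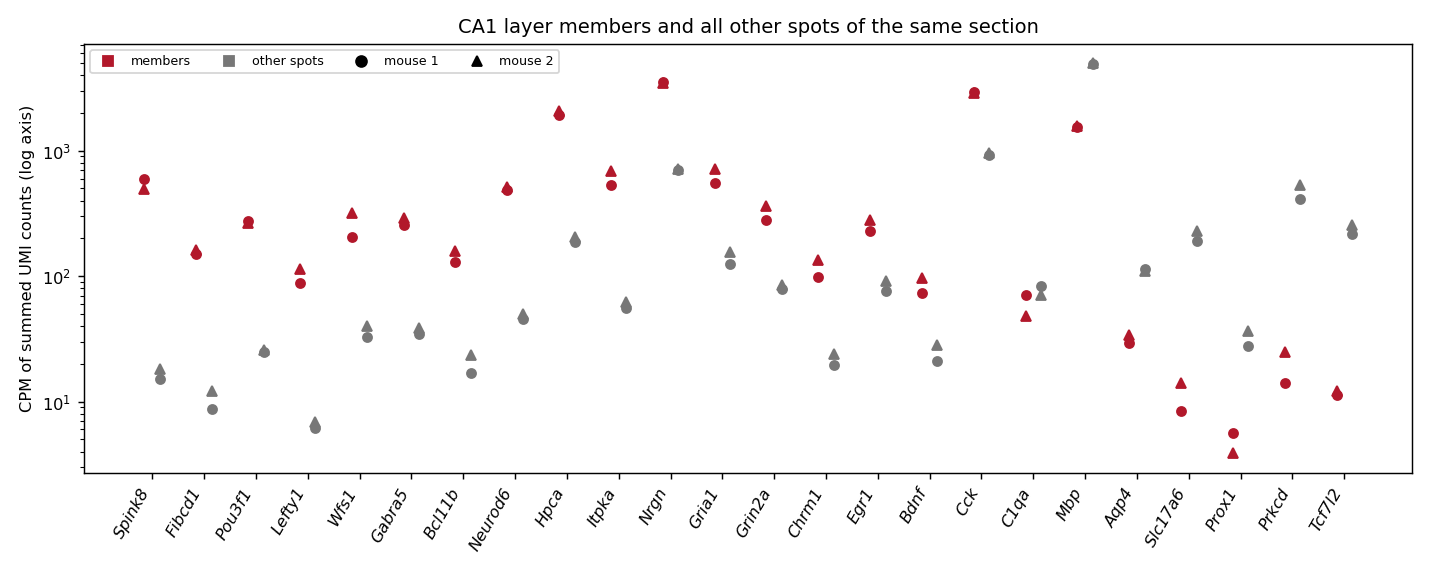
Level of 24 named genes in CPM of summed counts (log axis) in the 80 members (red, left of each pair) and in all other used spots (grey, right), with circles for mouse 1 and triangles for mouse 2. The 3 rule genes stand at the left, and Spink8 shows 593 and 497 CPM in members beside 15.1 and 18.1 CPM in other spots, while Tcf7l2 at the right shows the reverse order.

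A second set of the highest genes encodes calcium-handling proteins of pyramidal neurons. Hpca, the calcium sensor hippocalcin, had 1926 and 2079 CPM in members, against 188 and 206 CPM in other spots. Itpka, an inositol trisphosphate kinase of dendritic spines, had 534 and 690.5 CPM in members, against 55.4 and 62.4 CPM in other spots. Both were also present in the neighbouring fields, but in unlike amounts. Hpca had 1465 and 1499 CPM in the CA3-marker spots and 391 and 602 CPM in the dentate-marker spots. Itpka had 99.4 and 105 CPM in the CA3-marker spots and 197 and 227 CPM in the dentate-marker spots. Of 23 eligible genes of calcium and CaMKII signalling, 10 were at least 2-fold higher in members, 2 were at least 2-fold lower, and the median log2 ratio was 1.03. Nrgn, the calmodulin-binding postsynaptic protein neurogranin, had 3517 and 3451 CPM in members, against 707 and 717 CPM in other spots. The 2 lower genes were Pcp4, a small calmodulin-binding protein, at 381 and 341 CPM in members, against 2848 and 2751 CPM in other spots, and Camk2d, a CaMKII subunit, at 8.43 and 10.9 CPM in members, against 66.1 and 79.98 CPM in other spots.

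Glutamate receptor genes were split by subunit. Of 9 eligible AMPA receptor genes, 4 were at least 2-fold higher in members and 2 at least 2-fold lower. Gria1, the AMPA subunit tied to plasticity, had 548 and 710 CPM in members, against 124 and 157 CPM in other spots. Gria4, a subunit prominent in thalamus and cerebellum, had 12.6 and 10.9 CPM in members, against 36.2 and 37.2 CPM in other spots. Cnih2, an auxiliary protein that slows AMPA receptor closing, had 717 and 761 CPM in members, against 216 and 217 CPM in other spots. Of 9 eligible NMDA and kainate receptor genes, 2 were higher by that measure and 2 lower. Grin2a, an NMDA subunit of mature synapses, had 280 and 360 CPM in members, against 79.1 and 85.6 CPM in other spots. Grin3a, a subunit that lowers calcium entry, had 12.6 and 7.72 CPM in members, against 26.4 and 29.1 CPM in other spots. Of 6 metabotropic receptor genes 1 was higher and 3 were lower. Grm5, a receptor coupled to phospholipase C, had 173 and 151 CPM in members, against 67.0 and 72.5 CPM in other spots, and Grm4, which inhibits transmitter release, had 1.405 and 4.50 CPM in members, against 20.7 and 24.2 CPM in other spots.

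Inhibitory receptor subunits and ion channels showed the same kind of split. Of 11 eligible GABA-A receptor genes, 3 were at least 2-fold higher in members and 3 at least 2-fold lower. Gabra5, an alpha subunit of extrasynaptic receptors of the hippocampus, had 256 and 292 CPM in members, against 34.7 and 38.6 CPM in other spots. Gabrd, a subunit of extrasynaptic receptors of dentate granule cells and thalamus, had 16.9 and 22.5 CPM in members, against 88.3 and 94.4 CPM in other spots. Of 20 potassium channel genes 4 were higher and 3 lower. Kcnip2, a subunit that regulates fast-inactivating Kv4 channels, had 155 and 151 CPM in members, against 23.9 and 31.9 CPM in other spots. Kcnd3, which encodes such a Kv4 channel, had 11.2 and 5.15 CPM in members, against 40.6 and 46.2 CPM in other spots. Kcnip2 and Kcnd3 thus lay on opposite sides, which says nothing of other channel genes of the list. Of 6 genes of HCN and T-type channels, 3 were higher and 1 lower. Cacna1h, a T-type calcium channel, had 26.7 and 37.3 CPM in members, against 9.28 and 11.6 CPM in other spots. Cacna1g, the T-type channel of thalamic relay cells, had 14.05 and 25.1 CPM in members, against 65.1 and 75.3 CPM in other spots. Of 15 sodium and calcium channel genes 2 were higher and 2 lower, and Scn3b, a sodium channel beta subunit, had 221 and 311 CPM in members, against 43.3 and 58.7 CPM in other spots.

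Transcription factors of forebrain excitatory neurons formed one of the higher groups, with 13 of 24 at least 2-fold higher in members, 1 lower and a median log2 ratio of 1.34. One of the 13 was the rule gene Pou3f1. Neurod6 had 486 and 517 CPM in members, against 45.8 and 49.998 CPM in other spots. It had 408 and 476 CPM in the CA3-marker spots and 37.0 and 63.9 CPM in the dentate-marker spots. Bcl11b, a zinc-finger factor of several projection neuron types, showed another order. It had 129 and 158 CPM in members, against 11.9 and 38.1 CPM in the CA3-marker spots, 78.7 and 143 CPM in the dentate-marker spots and 17.1 and 23.5 CPM in all other spots. Lef1, a Wnt-pathway factor of the thalamus, was the lower one, at 4.21 and 4.50 CPM in members, against 33.0 and 36.5 CPM in other spots.

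Of 18 eligible postsynaptic scaffold genes, 4 were at least 2-fold higher in members and 0 lower. Baiap2, a spine scaffold that shapes actin, had 263 and 268 CPM in members, against 53.6 and 64.3 CPM in other spots. Of 20 presynaptic genes 1 was higher and 3 were lower. Slc17a7, the vesicular glutamate transporter of cortical neurons, was the higher one, at 475 and 536 CPM in members, against 219 and 266 CPM in other spots. Slc17a6, the transporter of subcortical glutamate neurons, had 8.43 and 14.2 CPM in members, against 189 and 230.1 CPM in other spots. Of 22 adhesion and guidance genes 4 were higher and 3 lower, and Epha7, an ephrin receptor, had 178 and 183 CPM in members, against 36.7 and 42.8 CPM in other spots. Of 10 neuromodulator receptor genes 3 were higher and 1 was lower. Chrm1, the main muscarinic receptor of pyramidal cells, had 98.3 and 136 CPM in members, against 19.5 and 24.0 CPM in other spots.

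Activity-regulated genes are of interest because both mice had received CNO, yet no section without it was analysed here, so these levels hold no comparison with an untreated state. Of 11 eligible immediate early genes, 8 were at least 2-fold higher in members and 1 was lower, with a median log2 ratio of 1.61. Egr1, a zinc-finger factor induced by activity, had 230.4 and 282 CPM in members, against 76.0 and 91.4 CPM in other spots. It had 75.6 and 90.1 CPM in the CA3-marker spots and 109 and 79.0 CPM in the dentate-marker spots. Arc, whose product removes AMPA receptors from the synapse, had 33.7 and 36.0 CPM in members, against 15.5 and 13.7 CPM in other spots. Jun was the lower one, at 14.05 and 14.2 CPM in members, against 37.6 and 47.2 CPM in other spots. Fos, the usual marker of recent firing, was too scarce to be eligible, with 5 and 13 UMIs in the members of each section (7.02 and 8.37 CPM, against 12.2 and 12.5 CPM in other spots). Npas4 had 5 and 12 UMIs. The 14 genes of the late activity-regulated list held 4 higher and 1 lower. Bdnf, the neurotrophin, had 73.1 and 95.9 CPM in members, against 21.2 and 28.1 CPM in other spots.

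The lowest genes included those of hypothalamus and thalamus. Pmch, the precursor of melanin-concentrating hormone, had 16.9 and 13.5 CPM in members, against 1285 and 1436 CPM in other spots. Hcrt, the orexin precursor, had 4.21 and 3.22 CPM in members, against 548 and 251 CPM in other spots. Prkcd, a protein kinase C of sensory thalamus, had 14.05 and 25.1 CPM in members, against 415 and 535 CPM in other spots. Markers of the neighbouring hippocampal fields were mostly lower too. The other spots take in those fields and all other tissue of the section, so this does not measure cells of those fields among the members. Of 6 CA3 genes 4 were at least 2-fold lower in members and 0 higher, and of 3 dentate granule genes 2 were lower. Of 4 CA2 genes 3 were lower. Rgs14, a signalling regulator of CA2 cells, was higher, at 88.5 and 95.9 CPM in members, against 12.7 and 17.1 CPM in other spots.

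Glial markers were present in members at reduced levels. Of 12 myelin genes 11 were at least 2-fold lower, with all 12 below the other spots in both mice. Their summed level was 4333 and 4013 CPM in members, against 12573 and 12961 CPM in other spots. Of 12 astrocyte genes 5 were at least 2-fold lower. Of 12 microglial genes 0 passed in either direction, with sums of 399 and 362 CPM in members, against 504 and 475 CPM in other spots. Of 11 interneuron genes 2 were higher, Vip and Cck. Cck, a neuropeptide gene, had 2946 and 2887 CPM in members, against 922 and 958 CPM in other spots. The pan-GABAergic genes lay lower, with Gad1 at 124 and 140 CPM in members, against 205 and 197 CPM in other spots. All 13 mitochondrial genes were below the other spots in both mice, with a median log2 ratio of -0.70 and 0 past 2-fold. Of 8 genes of stress and RNA quality 1 was higher and 1 was lower.

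**Figure D3:**
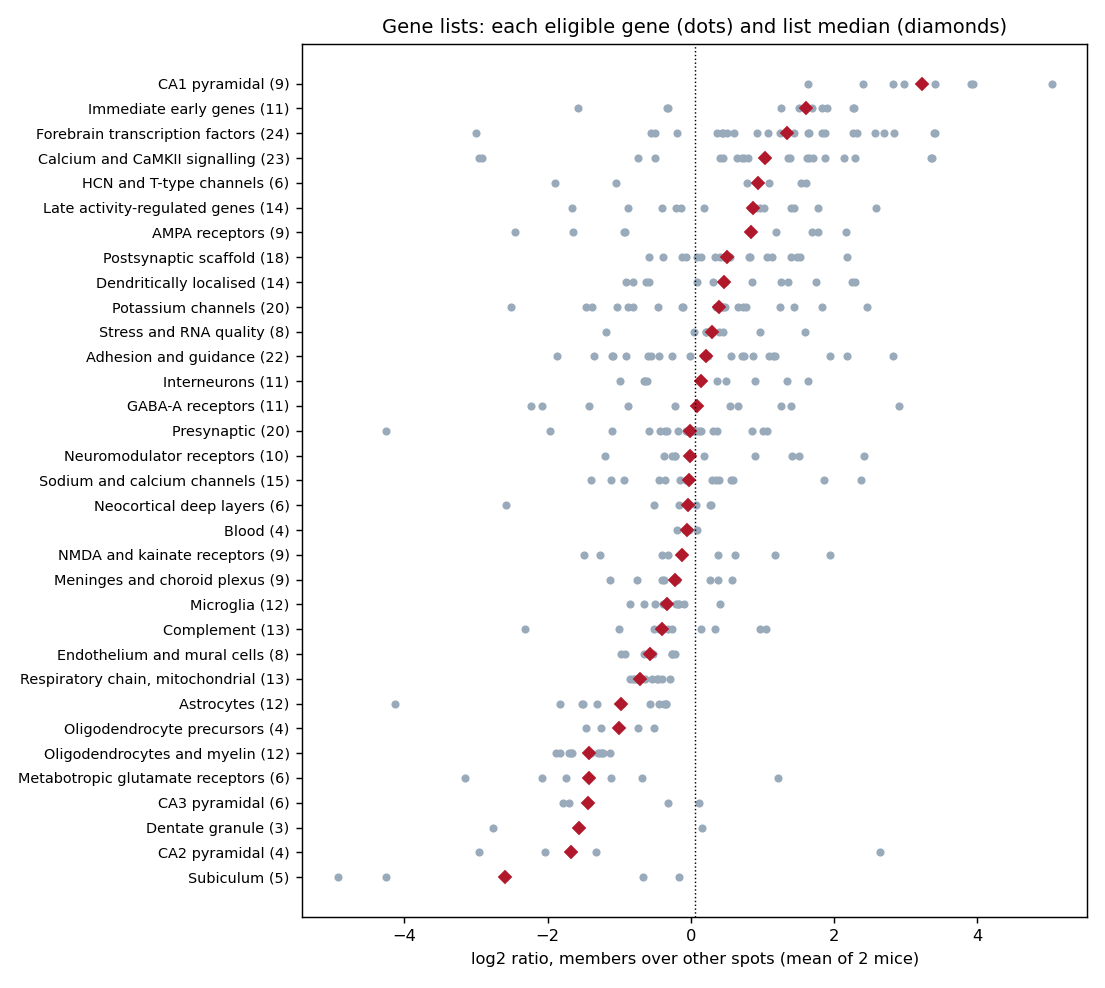
Log2 ratio of members over other spots, averaged over the 2 mice, for each eligible gene of the listed groups (dots) and for the group median (diamonds), with the number of eligible genes in brackets and the median over all eligible genes (0.06) as a dotted line. CA1 pyramidal genes lie at the top with a median of 3.23, which includes the 3 rule genes, and the subiculum and CA2 groups lie at the bottom.

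Complement and immunoglobulin genes were followed in every comparison, though not each of them is named in all. Of 13 eligible complement genes 0 were at least 2-fold higher in members and 1, the regulator Cd59a, was lower. C1qa, a chain of the classical-pathway initiator C1q that microglia make, had 70.2 and 48.3 CPM in members, against 83.5 and 70.8 CPM in other spots. C1qb had 56.2 and 59.2 CPM in members, against 84.2 and 73.5 CPM in other spots. C1qc had 56.2 and 47.6 CPM in members, against 67.9 and 61.8 CPM in other spots. All 3 chains were lower in members in both mice, each by less than 2-fold. Of the 12 microglial genes 6 were lower in members in both mice and 1 was higher in both. C4b, a complement component, had 11.2 and 9.65 CPM in members, against 26.0 and 16.8 CPM in other spots. Igkc, the immunoglobulin kappa constant region, rested on 10 UMIs in each section, or 14.05 and 6.43 CPM in members, against 34.8 and 13.7 CPM in other spots. Ighm, the immunoglobulin mu chain, had 29.5 and 38.6 CPM in members, against 27.5 and 23.3 CPM in other spots, and Igha had 3 and 2 UMIs.

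The position of a member along the layer was not used by the rule and could be tested. Members of each section and image side were split at their median distance from the midline, which gave 40 medial and 40 lateral members in mouse 1 and 39 medial and 41 lateral members in mouse 2. The cut was not at the same distance in the 2 mice. With left distances written as negative, medial members reached -13.992 steps on the left in mouse 1 and -7.635 in mouse 2. On the right they reached 10.974 and 9.824 steps. Their summed counts were compared with edgeR's quasi-likelihood test, with the mouse as a block and Benjamini-Hochberg adjustment over all genes tested. With 4 libraries and 1 residual degree of freedom, these p-values rest on a spread pooled over genes, and which in sums over 1 section per mouse may be technical. Of 7130 genes tested, 25 (0.351%) passed an adjusted p of 0.05, of which 6 (0.0842%) were higher in the medial members and 19 (0.266%) lower.

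Wfs1 was the CA1 marker among the 6. It had 267 and 388 CPM in the medial members, against 134 and 227 CPM in the lateral members. Both medial values lay above both lateral values. The log2 change was 0.80 ± 0.14 (SE), with an adjusted p of 0.0187 in edgeR's test. Among members more than 6 steps from the midline, split anew, it was 1.22 ± 0.17 with an adjusted p of 2.1e-09. The other 8 tested CA1 pyramidal genes, the 3 rule genes among them, did not pass. DESeq2 and the fit without the mouse term did not call Wfs1.

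Calb1, Pcp4 and Gap43 had the opposite order. Calb1, the calcium buffer calbindin of superficial CA1 cells, had 61.3 and 40.6 CPM in the medial members, against 122 and 101 CPM in the lateral members, a log2 change of -1.23 ± 0.23 (SE) with an adjusted p of 0.0249 in edgeR's test. Pcp4 had 235 and 232 CPM in the medial members, against 544 and 477 CPM in the lateral members, a change of -1.16 ± 0.13 with an adjusted p of 9.97e-05. Gap43, a growth-cone and presynaptic phosphoprotein, had 90.6 and 106 CPM in the medial members, against 261 and 226 CPM in the lateral members, a change of -1.30 ± 0.17 with an adjusted p of 0.00108. For each of these genes both lateral values lay above both medial values. All 3 also passed more than 6 steps from the midline, and DESeq2 called Pcp4 of these 3. Pcp4 is also a CA2 marker. The 7 CA2 genes of the tables, Pcp4 included, summed to 341 and 369 CPM in the medial members, against 784 and 639 CPM in the lateral members. Pcp4 made up most of each of these sums. In the medial members 1 and 1 of the 7 were at 0, against 0 and 1 in the lateral members. Pcp4 was the 1 of 3 tested CA2 genes that passed, the median of the 3 was -0.75, and the part of CA2 cells in these results was not tested.

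Gm26644, a gene with no known role given in the table, had 0 UMIs in the medial members of either mouse, against 9 and 16 UMIs (26.7 and 23.1 CPM) in the lateral members. Taken against a floor of 3 counts per library, it was at least 3.34-fold lower in the medial members of mouse 1 and at least 6.65-fold lower in that of mouse 2 (edgeR's adjusted p = 0.0198). Igfbp6, a binding protein of insulin-like growth factors, had 26.7 and 29.0 CPM in the medial members, against 74.3 and 72.3 CPM in the lateral members, with an adjusted p of 0.0359. Nrsn1, Pgm2l1, Cplx2, Vxn, Uchl1 and Basp1 were also lower in the medial members, with log2 changes of -0.47 to -0.78. Of Igfbp6 and these 6 genes, Uchl1 alone passed more than 6 steps from the midline. Gm42418 and AY036118, loci that overlap ribosomal RNA repeats and share their reads, passed as well, as did Lars2, Malat1, Tmsb10, Rps23 and Rps29. Hbb-bt, a haemoglobin chain, had 208 and 38.3 CPM in the medial members, against 261 and 412 CPM in the lateral members, and the blood genes summed to 2148 and 429 CPM in the medial members, against 1860 and 4371 CPM in the lateral members, an order that the 2 mice did not share.

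The other 5 genes higher in the medial members were Ttr, Ecrg4, Mgp, Enpp2 and Ptgds, which are made in choroid plexus and meninges. Ttr, the thyroid-hormone carrier of the choroid plexus, had 7482 and 5387 CPM in the medial members, against 261 and 340 CPM in the lateral members. The list of 10 choroid plexus and meningeal genes summed to 10651 and 6672 CPM in the medial members, against 859 and 881 CPM in the lateral members, with 0 and 0 of them at 0 in the medial members and 4 and 2 in the lateral members. The highest Ttr levels lay near the midline. In mouse 1 the 17 members within 6 steps had a median of 2960 CPM of Ttr and the 63 farther out 254 CPM. In mouse 2 the 22 members within 6 steps had a median of 5261 CPM and the 58 farther out 426 CPM. Leaving out members within 6 steps, an alternative added after this was seen, gave 18 calls, of which 5 (0.0834%) were higher and 13 (0.217%) lower, and 11 of the 23 original calls still tested were among them. Ttr and Enpp2 were still higher in medial members there, with log2 changes of 1.91 ± 0.16 (adjusted p = 4.91e-22) and 0.80 ± 0.19 (adjusted p = 0.013) in edgeR's test, and single members beyond 6 steps reached 1319 CPM of Ttr in mouse 1 and 8364 CPM in mouse 2.

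**Figure D4:**
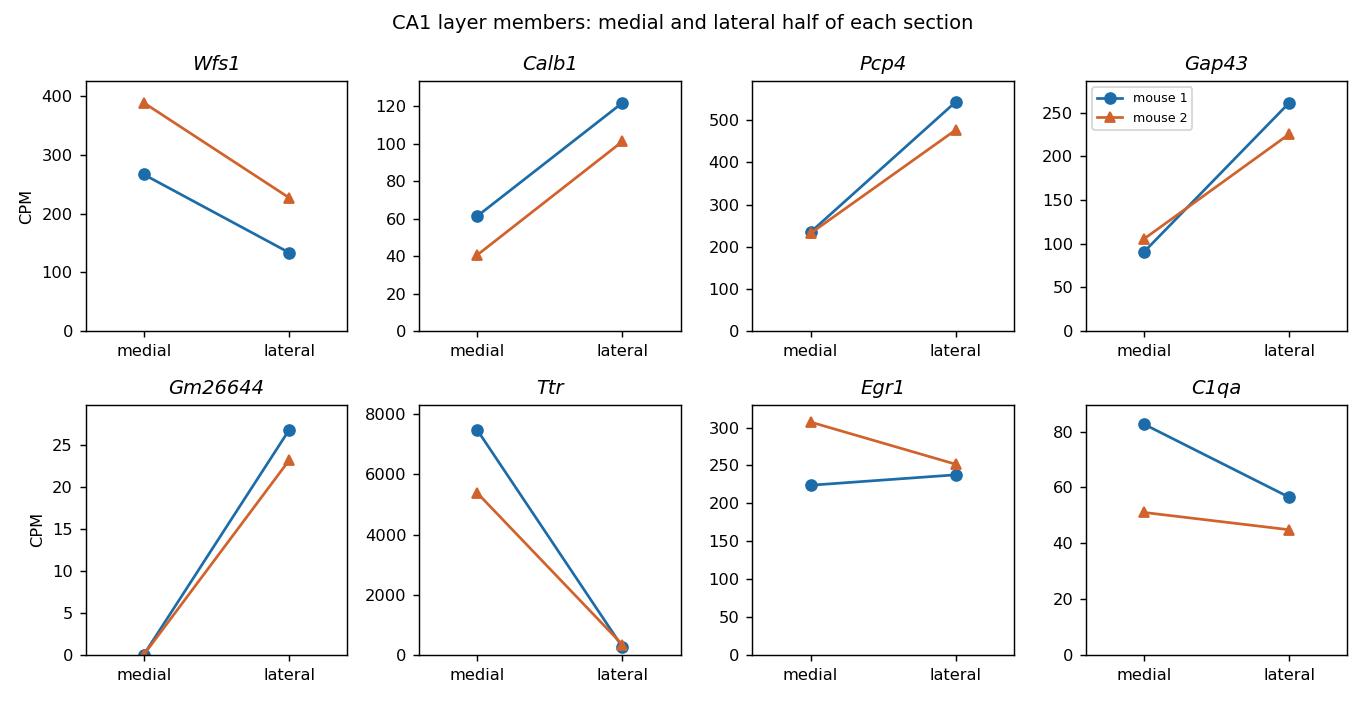
CPM of summed counts in the medial (left) and lateral (right) members for 8 genes, with a line per mouse (circles mouse 1, triangles mouse 2) and axes that start at 0. Wfs1 is higher and Calb1, Pcp4, Gap43 and Gm26644 are lower in the medial members in both mice, Ttr shows the choroid plexus signal near the midline, and Egr1 and C1qa did not pass the test.

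Immediate early and complement genes gave no call along the layer. Egr1 had 224 and 307 CPM in the medial members, against 238 and 252 CPM in the lateral members, an adjusted p of 0.882 in edgeR's test, with the 2 mice in opposite order. C1qa had 82.6 and 51.0 CPM in the medial members, against 56.4 and 44.8 CPM in the lateral members, with an adjusted p of 0.797. C1qc had 66.6 and 55.7 CPM in the medial members, against 44.6 and 37.6 CPM in the lateral members, with an adjusted p of 0.562. Of 9 tested immediate early genes and 9 tested complement genes, 0 passed in either direction in edgeR's test. Ighm had 24.0 and 54.5 CPM in the medial members, against 35.6 and 18.8 CPM in the lateral members, with the mice in opposite order and an adjusted p of 0.557.

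Between the left and the right of the image few genes of the layer passed. In simulated counts with 200 changed genes this test called 51% of the 2-fold changes, so genes that did not pass may still differ. The simulation gave every gene a dispersion (spread beyond counting error) of 0.01 and no difference between the mice. The common dispersion fitted to the data by side was 0.0056, so the 51% holds for the simulated setting only. Of 7021 genes tested, 6 (0.0855%) were higher on the left and 0 lower in edgeR's test. At an unadjusted p of 0.05, 340 genes passed. Myelin genes were among the 6. Mobp, a myelin protein of oligodendrocytes, had 333 and 389 CPM on the left, against 207 and 183 CPM on the right, a log2 change of 0.98 ± 0.14 (SE) with an adjusted p of 1.45e-08. Mbp had 1812 and 2038 CPM on the left, against 1213 and 1267 CPM on the right, a change of 0.68 ± 0.09 with an adjusted p of 2.63e-10. Both left values lay above both right values for Mobp and for Mbp. All 12 myelin genes had values above 0, with a median of 0.60, and most of them did not pass. The 12 summed to 5235 and 4897 CPM on the left, against 3217 and 3400 CPM on the right. Among the 40 top-scoring members of each section neither Mobp nor Mbp passed.

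Other calls by side were Gm42418, Ttr and Ptgds. Ttr had 6259 and 2470 CPM on the left, against 1357 and 3607 CPM on the right, and Ptgds had 1954 and 443 CPM on the left, against 569 and 523 CPM on the right. Both genes went opposite ways in the 2 mice, so their calls rest on mouse 1. Without the mouse term edgeR called 0 genes, with 204 below 0.05 before adjustment, DESeq2 called Mbp alone, and more than 6 steps from the midline 2 genes were called (0.0365%), Mobp among them. C1qa had 78.8 and 58.1 CPM on the left, against 59.7 and 41.4 CPM on the right, with an adjusted p of 0.992. Egr1 had 231 and 294 CPM on the left, against 229 and 275 CPM on the right, with an adjusted p of 0.992, and Arc had 30.5 and 26.7 CPM on the left, against 37.7 and 42.5 CPM on the right, also at 0.992. In edgeR's test 0 of 9 tested immediate early genes, 0 of 13 late activity-regulated genes and 0 of 9 complement genes passed. The 10 Igkc UMIs of mouse 1 all lay on the left, and those of mouse 2 were 5 on the left and 5 on the right.

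The spots bordering the layer were compared with each other, since the rule did not use on which side of it a neighbour lay. Non-member spots within 2 steps of a member formed a lower flank of 222 and 160 spots, with larger array rows than the nearby members, and an upper flank of 181 and 144 spots. In edgeR's test 1462 of 10854 genes (13.5%) passed, 653 (6.02%) higher in the lower flank and 809 (7.45%) lower. The 10 largest rises were Tmem72, Defb11, Zfp185, Kcnj13, A2m, Crb3, Hdc, Col8a2, Steap1 and Otx2. Kcnj13, a potassium channel of the choroid plexus epithelium, had 45.0 and 45.1 CPM in the lower flank, against 2.88 and 1.92 CPM in the upper flank. Choroid plexus and meningeal genes summed to 25359 and 24882 CPM in the lower flank, against 5433 and 5312 CPM in the upper flank, with 0 of the 10 at 0 in either. None of the 10 largest rises had enough counts to be tested more than 6 steps from the midline, where 469 of 9824 genes (4.77%) were higher in the lower flank and 607 (6.18%) lower.

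Many genes of dendrites and postsynaptic signalling were higher below the layer, as counted below. Camk2a, the CaMKII subunit whose mRNA is carried into dendrites, had 405 and 493 CPM in the lower flank, 374 and 382 CPM in the members and 210.2 and 214 CPM in the upper flank. The change between the flanks was 1.09 ± 0.08 (SE) with an adjusted p of 1.9e-16 in edgeR's test, and 1.22 ± 0.09 more than 6 steps out. Cnih2 had 606 and 668 CPM in the lower flank, 717 and 761 CPM in the members and 377 and 380 CPM in the upper flank, a change between the flanks of 0.75 ± 0.07 with an adjusted p of 8.32e-13. Homer2, a postsynaptic scaffold protein, had 59.7 and 71.0 CPM in the lower flank, 71.7 and 70.1 CPM in the members and 33.8 and 36.9 CPM in the upper flank, a change between the flanks of 0.89 ± 0.17 with an adjusted p of 5.93e-05. For all 3 genes the flanks did not overlap, and more than 6 steps out the changes were 0.92 ± 0.08 for Cnih2 and 1.14 ± 0.19 for Homer2. Of 14 genes with dendritically localised mRNA 10 were higher in the lower flank and 1 was lower, with the same counts more than 6 steps out. Of 18 postsynaptic scaffold genes 7 were higher and 0 lower, against 10 and 0 farther out. Of 24 genes of calcium and CaMKII signalling 11 were higher and 0 lower, against 13 of 23 and 0 farther out. Of 10 tested CA1 pyramidal genes 3 were higher in the lower flank and 0 lower, 2 of the 3 being rule genes, whose levels decided which spots were left to the flanks. Hpca, also high in the layer, had 769 and 737 CPM in the lower flank, against 471 and 531 CPM in the upper flank (0.57 ± 0.07, adjusted p = 1.27e-09), and 0.77 ± 0.08 more than 6 steps out. Neurod6, which peaked in the layer, had 171 and 190 CPM in the lower flank, against 102 and 141 CPM in the upper flank. The part of cell-layer signal within the flanks in these results was not tested.

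Some receptor genes passed in each of the following lists, where 13.5% of all genes tested passed. Of 12 neuromodulator receptor genes 3 were higher in the lower flank and 1 was lower, of 11 GABA-A receptor genes 2 were higher and 0 lower, of 11 NMDA and kainate receptor genes 2 were higher and 1 was lower, and of 7 metabotropic glutamate receptor genes 2 were higher and 2 lower. Npy2r, a receptor of neuropeptide Y, had 24.8 and 15.5 CPM in the lower flank, against 7.92 and 6.70 CPM in the upper flank, a change of 1.41 ± 0.33 (SE) with an adjusted p of 0.00115 in edgeR's test. Htr1a, an inhibitory serotonin receptor, had 10.1 and 17.6 CPM in the lower flank, against 4.32 and 5.27 CPM in the upper flank, with an adjusted p of 0.00368. Gabra5 had 122 and 123 CPM in the lower flank, against 82.8 and 81.9 CPM in the upper flank, with an adjusted p of 0.000211. The flanks did not overlap for any of these 3 genes, and all 3 also passed more than 6 steps out. Htr2c, the largest called change of the neuromodulator list, was higher in the lower flank by 1.68 ± 0.22 (adjusted p = 3.16e-08 in edgeR's test). More than 6 steps out it did not pass, at 0.25 ± 0.48 with an adjusted p of 0.849. Grm2 and Grm3 passed in the whole flanks but not farther out, with adjusted p of 0.181 and 0.123, while Grm8 passed in both, with 0.00569 farther out. Of 12 astrocyte genes 3 were higher in the lower flank and 1 was lower, with a median log2 change of 0.02 and sums of 2996 and 3110 CPM in the lower flank, against 2985 and 3070 CPM in the upper flank. Aqp4, the water channel of astrocyte endfeet, had 127 and 120 CPM in the lower flank, 29.5 and 34.1 CPM in the members and 84.2 and 67.0 CPM in the upper flank, with an adjusted p of 6.05e-06 between the flanks and 1.69e-05 more than 6 steps out. Of 6 tested CA2 genes 4 were higher in the lower flank and 0 lower, with a median log2 change of 0.99. Amigo2, Necab2 and Ccdc3 were among them, Necab2 with 96.9 and 56.5 CPM in the lower flank, against 32.4 and 29.7 CPM in the upper flank. The CA2 list summed to 981 and 722 CPM in the lower flank, against 836 and 691 CPM in the upper flank. Of 6 CA3 genes 2 were higher, Bok and Cpne4, and 0 lower, with a median of 0.16. Ccdc3 had too few counts to be tested more than 6 steps out, where the other 4 named genes passed.

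Myelin genes led above the layer. All 12 were lower in the lower flank, with a median log2 change of -2.09, and all 12 remained so more than 6 steps out. Mobp had 347 and 318 CPM in the lower flank, 277 and 268 CPM in the members and 1959 and 1914 CPM in the upper flank, a change between the flanks of -2.55 ± 0.07 (SE) with an adjusted p of 1.83e-36 in edgeR's test. The members thus lay near the lower flank for this gene. Kif5a, a kinesin motor of axonal transport, had 378 and 411 CPM in the lower flank, against 929 and 1005 CPM in the upper flank, with an adjusted p of 9.26e-23 and a change of -1.30 ± 0.07, against -1.07 ± 0.08 more than 6 steps out. Of 13 interneuron genes 5 were lower in the lower flank and 0 higher, against 2 lower and 2 higher more than 6 steps out. Sst, the neuropeptide somatostatin of interneurons that include those of the stratum oriens, had 295 and 283 CPM in the lower flank, 273 and 257 CPM in the members and 928 and 1383 CPM in the upper flank. Its change between the flanks was -2.01 ± 0.08 with an adjusted p of 1.79e-27, and -1.47 ± 0.08 more than 6 steps out. Npy, a neuropeptide of an overlapping interneuron set, had 178 and 152 CPM in the lower flank, against 361 and 362 CPM in the upper flank, with an adjusted p of 2.74e-16 and a change of -1.15 ± 0.09, against -0.71 ± 0.10 more than 6 steps out. Of 6 neocortical deep-layer genes 3 were also higher in the upper flank, Cplx3, Rprm and Ccn2. Cplx3 had 10.1 and 8.29 CPM in the lower flank, against 39.6 and 33.5 CPM in the upper flank, so that the upper flank carried a marker of another tissue, whose part in the other results was not tested.

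**Figure D5:**
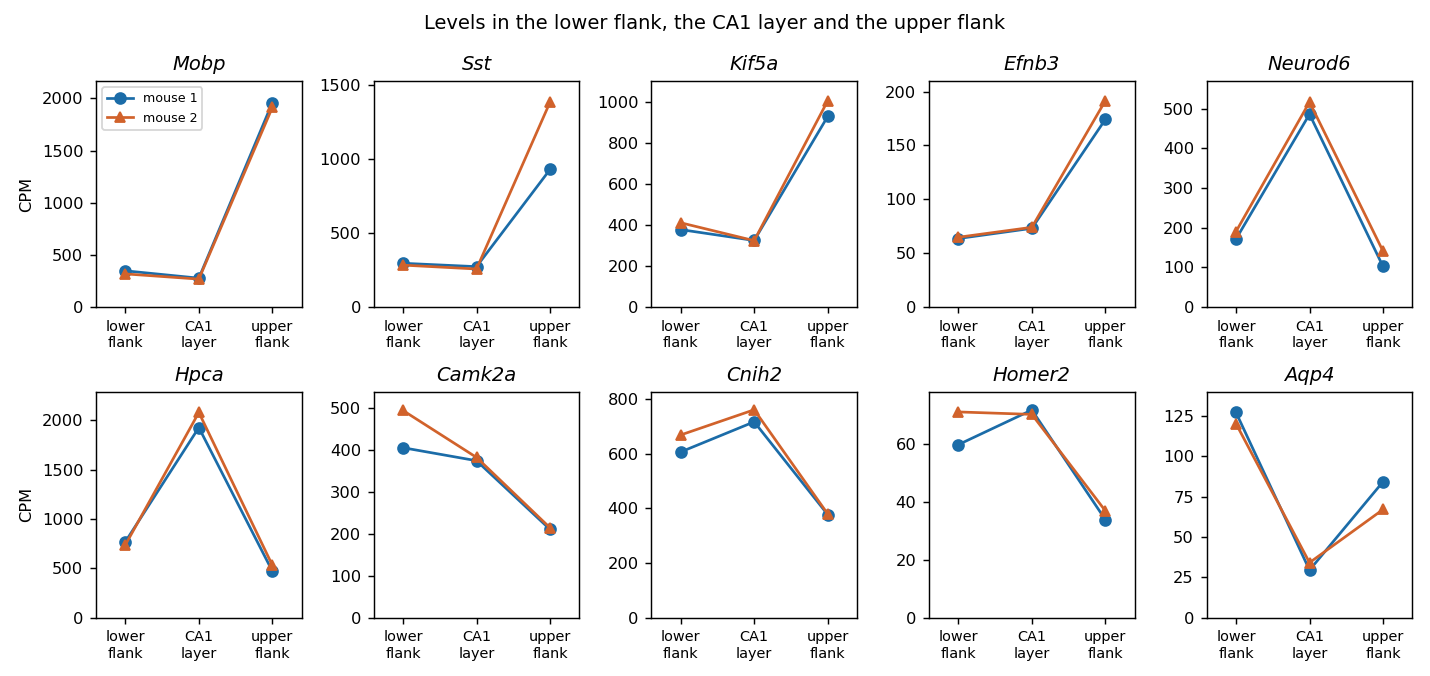
CPM of summed counts in the lower flank, the CA1 layer members and the upper flank (left to right) for 10 genes, with a line per mouse (circles mouse 1, triangles mouse 2) and axes that start at 0. Neurod6 and Hpca peak in the layer, Mobp, Sst, Kif5a and Efnb3 are highest in the upper flank, Camk2a is highest in the lower flank, and Aqp4 is lowest in the layer.

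Of 18 tested complement genes 4 were higher in the lower flank and 3 lower, where 13.5% of all genes tested passed. C1qa had 106 and 88.6 CPM in the lower flank, against 145 and 118 CPM in the upper flank, a change of -0.43 ± 0.11 (SE) with an adjusted p of 0.00454 in edgeR's test. More than 6 steps out C1qa did not pass, at -0.25 ± 0.14 with an adjusted p of 0.297. C1qb and C1qc did not pass in the whole flanks, with adjusted p of 0.0738 and 0.109. C4b had 30.2 and 14.5 CPM in the lower flank, against 56.1 and 34.5 CPM in the upper flank, a change of -1.06 ± 0.21 with an adjusted p of 0.000114, against -0.85 ± 0.26 with 0.0151 more than 6 steps out. Of 12 microglial genes 3 were lower in the lower flank and 0 higher, with sums of 646 and 635 CPM in the lower flank, against 801 and 739 CPM in the upper flank. More than 6 steps out 1 of these 12 was lower and 1 higher. Igkc had 139 and 11.4 CPM in the lower flank, against 10.8 and 22.5 CPM in the upper flank, so its fitted change of 1.71 (adjusted p = 0.000112) rests on mouse 1 and is -0.91 in mouse 2 alone. More than 6 steps out that fitted change was 4.73 ± 0.35. Igha had 20 and 14 UMIs in the lower flank, against 1 and 4 UMIs in the upper flank. Its change was 2.81 ± 0.61 with an adjusted p of 0.000529 in edgeR's test, in the same direction in both mice. It had too few counts to be tested more than 6 steps out. Ighm did not pass, with an adjusted p of 0.744. Of 15 immediate early genes 0 were higher in the lower flank and 3 lower, Dusp1, Jun and Jund, of which Dusp1 did not pass more than 6 steps out (adjusted p = 0.128). Egr1 had 129 and 208 CPM in the lower flank, against 171 and 205 CPM in the upper flank, with the mice in opposite order and an adjusted p of 0.44. Fos, Arc and Bdnf did not pass either, with adjusted p of 0.357, 0.823 and 0.0606 in edgeR's test.

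The mice themselves were set side by side with no test, since each gave 1 section, and genotype label, section, depth and animal cannot be told apart. Of 8858 genes with at least 10 CPM on average in members, 271 (3.06%) were at least 2-fold higher in mouse 2 and 129 (1.46%) at least 2-fold lower. Lrrc17, a secreted leucine-rich repeat protein, had 386 CPM in the members of mouse 2, against 25.3 CPM in those of mouse 1, 15.3-fold with an exact Poisson interval of 9.58 to 25.9. In the other spots it had 644 CPM in mouse 2, against 64.5 CPM in mouse 1, so the difference was not confined to the layer. B230312C02Rik was 11.6-fold higher in the members of mouse 2 and 4.55-fold higher in its other spots. Dusp26, a protein phosphatase, had 28.3 CPM in the members of mouse 2, against 2.81 CPM in those of mouse 1, and 103 CPM in the other spots of mouse 2, against 55.9 CPM in those of mouse 1. Nfkb2 and Dop1a had 34 and 33 UMIs in mouse 2 and 1 UMI each in mouse 1, with intervals that reach 2.61 and 2.53 at their lower end. The lowest ratios belonged to Gm10053, Rtl8c, Msx1, Hist2h2aa1 and Ppp2cb. Ppp2cb, a catalytic subunit of protein phosphatase PP2A, had 9.01 CPM in the members of mouse 2, against 64.6 CPM in those of mouse 1. In the other spots it had 13.6 CPM in mouse 2, against 51.9 CPM in mouse 1. Egr1 was 1.23-fold higher in the members of mouse 2 with an interval of 1.02 to 1.48, and 1.20-fold higher in its other spots, so this difference was not confined to the layer. The intervals of Arc, Bdnf, C1qa, C1qb, C1qc, C4b, Igkc and Ighm each held 1. These intervals, at 95%, cover counting error only.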

How the data were processed

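Visium spatial transcriptomics of 1 brain section from each of 2 mice was used. The authors deposited UMI counts per gene and spot, not normalized. Per the file headers, Space Ranger 1.3.1 produced these counts. The genome build mm10 is named in the submitters' processing notes. The tables held 32285 genes, of which 78 shared a symbol with another. Members and gene lists were chosen with earlier results of these data known.

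Counts were summed per section and set of spots. Members and other spots were described by CPM ratios with exact Poisson intervals at 95%, which cover counting error only, and a ratio was counted past the fold at 2-fold in both mice. The image left and right, the medial and lateral members and the flanks were tested with edgeR 4.0.16 (TMM, filterByExpr, quasi-likelihood F-test, mouse as a block, Benjamini-Hochberg over all genes tested, threshold 0.05), after tests on simulated data. SE is the absolute log2 change divided by the square root of F. The line of symmetry maximised the correlation of mirrored spots over 20 principal components of 2000 variable genes, with scikit-learn 1.9.0. Figures were drawn with matplotlib 3.10.9.

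Genes were named by rule. Beside other spots these were the rule genes, the 15 highest and 10 lowest eligible genes and up to 4 per list by size. In tested comparisons they were the 10 largest rises and falls that both mice shared, up to 3 called per list, and 12 activity, complement and immunoglobulin genes throughout. Between mice they were the 5 highest and 5 lowest ratios. Grp, Gad1 and Gria4 were named outside that rule, after their values were seen, and other called genes were named to complete short counts. Alternatives were DESeq2 1.42.0, no low-count filter, no mouse term, other member numbers, scores and splits, thinning of mouse 2 to the depth of mouse 1, narrower flanks and each mouse alone. Some genes that the rule would name are not reported here.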

Additional observations from a re-analysis of the deposited data

How the results depend on the processing

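With 1 mouse left no residual degrees of freedom remain, so no genes were called without a replicate. The mouse was a block in every test, which pairs the compared spots of each mouse, and the fits with no mouse term are given beside it. For genes at least 2-fold higher and lower in members, a minimum mean CPM of 1 gave 627 and 879 genes, and each mouse alone 579 to 597 and 717 to 752, against 414 and 473 in both. For image left against image right within members, 6 calls became 1 with DESeq2, 0 with no mouse term (edgeR, 204 genes at an unadjusted p under 0.05) and 2 over 6 steps from the midline, and the 40 top-scoring spots gave 6 calls of which 1 was shared and 33.3% were higher on the left, against all 6. For medial against lateral members, 25 calls became 3 with DESeq2, 9 with no mouse term, 46 with no low-count filter, 160 with 120 top-scoring spots, 42 with mouse 2 thinned, 82 with the innermost against the outermost members and 69 with mouse and side as blocks. The share higher in medial members, 24.0%, was 55.6% with no mouse term, 23 of 46 with no filter, 47.5% with 120 spots, 40.5% with thinning, 52.4% with innermost against outermost and 52.2% with both blocks. For the lower flank against the upper flank of the CA1 layer, 1462 calls became 293 with DESeq2 (29.4% higher in the lower flank, against 44.7%), 674 with no mouse term and 385 within 1 step of the layer. The 6-step limit was chosen after seeing the data. Log2 values by side that reversed were, for each mouse alone, -0.546 to 2.202 for Ttr and -0.239 to 1.775 for Ptgds, the lower value in mouse 2. Over 6 steps from the midline Rps29 reversed to 0.028 between medial and lateral members, and Hba-a2 to -0.123, Hba-a1 to -0.255 and Cd59a to -0.662 between flanks. Igkc between flanks was -0.912 to 3.545 in each mouse alone, the lower value in mouse 2. Of the called genes the text could name, DESeq2 called 1 of 6 by side, 3 of 25 between medial and lateral members and 29 of 107 by flank. The cause was not tested. Genes with few UMIs in the members, such as Fos, Npas4, Igkc and Igha, were limited by depth.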
